A study of Mus musculus with 6 samples.

Results

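The 10 genes described here are immediate-early genes, taken as the rows of the deposited gene table whose name was Fos, Fosb, Jun, Junb, Jund, Egr1, Atf3, Dusp1, Ier2 or Nr4a1. Each name matched 1 row, so 10 of 34709 genes were found, and all 10 passed the filter on low values. They were measured by RNA-seq in articular cartilage of male mice aged 18 months, either knockout (KO, a purchased line for which no tissue-restricted driver was named) or wildtype, with littermates compared. The series held 6 libraries, 3 labelled KO (KO 1, KO 2 and KO 3) and 3 labelled wildtype (WT 1, WT 2 and WT 3), with no treatment in either group. The comparison asked whether the transcripts of these genes differed between KO and wildtype cartilage.

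Immediate-early genes are transcribed within minutes of a stimulus such as a growth factor, a cytokine, mechanical load or tissue damage, without the need for new protein synthesis. Kinase cascades act on factors already bound at their promoters, among them serum response factor and CREB, and the mRNAs that follow are short-lived. In joint tissue the AP-1 factors among them, dimers of FOS and JUN proteins, are known to act on the promoters of matrix-degrading proteinases. Because the same genes respond to handling of the tissue, their levels in dissected cartilage also depend on the time between death and lysis, which was not given in the sources used here.

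The libraries were compared before their values were averaged. Total counts ranged from 52268311 to 63331135 per library. KO 2 and KO 3 were the closest of the 15 pairs, with Pearson's r of 0.994 across genes on the log2(FPKM + 1) scale against 0.959 to 0.980 for the other 14 pairs. On counts scaled to the library total, over genes within a set range of mean counts, their median absolute log2 difference was 0.069 against 0.171 to 0.325. If each deposited count were 1 read pair, their counts would differ by 5.78 times the variance that counting alone gives, against 23.6 to 85.0 times in the other pairs. The counts were estimates that need not be read pairs, so these multiples serve only to set the pairs side by side. They were counted as 1 sample, their mean, so that 2 KO and 3 wildtype samples were compared. The p-values measure the spread between these samples, since the labels did not say whether each library came from a separate mouse. In bulk tissue, fewer cells of a type and less RNA per cell cannot be told apart. The labelled tissue was checked by its markers. Of 14 chondrocyte genes, 9 were above 1 FPKM in each of the 6 libraries, with Prg4 (lubricin, of the cartilage surface) between 402 and 1034 FPKM and Col2a1 (the main cartilage collagen) between 12.4 and 21.3 FPKM. Matn1 and Matn3 were at 0 in 2 and 3 libraries. Marrow genes were far more abundant, with a summed level of 27182 to 62789 FPKM over 12 neutrophil and granulocyte precursor genes and of 24953 to 108566 FPKM over 9 erythroid genes.

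All 10 immediate-early genes were detected in every library. On the FPKM scale, which is per transcript length and therefore allows levels of different genes to be set side by side, the mean over the 5 samples was 30.5 for Jund, 28.0 for Ier2, 23.6 for Junb, 18.6 for Dusp1 and 18.5 for Fos. The other 5 genes were lower, at 7.18 for Egr1, 5.40 for Nr4a1, 3.8 for Jun, 2.66 for Atf3 and 1.95 for Fosb. Neighbours in this order had overlapping ranges over the libraries in all 9 steps. Deposited counts of these genes lay between 242 (Atf3 in WT 2) and 6190 (Dusp1 in KO 1). In each of the 10 genes the highest of the 6 libraries was KO 1, whereas KO 1 was the highest library for 11.1% of all 15373 tested genes. The same 10 of 10 were highest in KO 1 on CPM, counts scaled to the library total, against 10.3% of tested genes. The lowest library was KO 2 or KO 3 for Jund, Dusp1, Egr1 and Jun, WT 2 for Fos, Fosb, Nr4a1 and Atf3, and WT 1 for Ier2 and Junb.

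**Figure D1:**
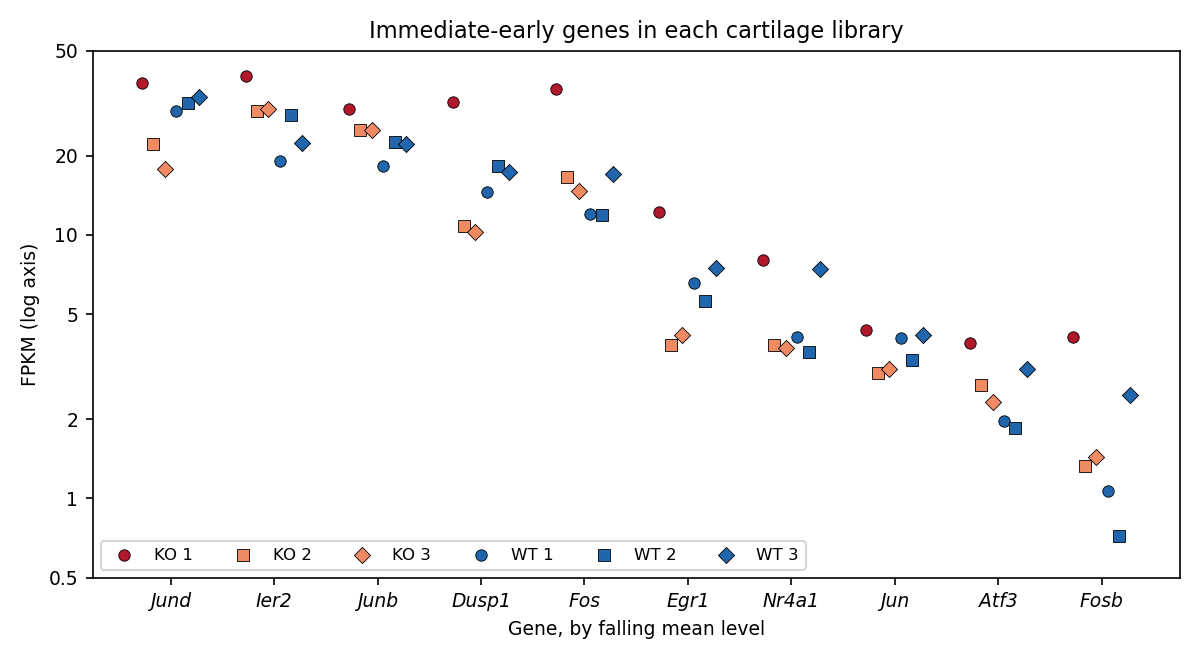
Level of each of the 10 immediate-early genes in each of the 6 libraries, in FPKM on a log axis, with genes ordered by their mean over the 5 samples. Red and orange symbols are KO libraries and blue symbols wildtype libraries. KO 1 is the highest point for all 10 genes, and KO 2 and KO 3 lie under the 3 wildtype libraries for Jund, Dusp1, Egr1 and Jun.

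The FOS proteins are partners of JUN proteins in AP-1 dimers. Fos (chromosome 12, 85473890 to 85477273, positions here being those deposited) was at 35.8, 16.6 and 14.7 FPKM in KO 1, KO 2 and KO 3, and at 12.1, 11.9 and 17.0 FPKM in WT 1, WT 2 and WT 3. KO 1 stood at 2.28 times the mean of KO 2 and KO 3, and the groups overlapped because WT 3 lay above the merged KO sample. Fosb (chromosome 7, 19302696 to 19310051) was at 4.09, 1.33 and 1.44 FPKM in the KO libraries and at 1.07, 0.720 and 2.46 FPKM in the wildtype libraries. It was the most variable of the 10, with 5.68 times between the highest and lowest library and 3.42 times among the wildtype libraries alone. The log2 difference between KO and wildtype was 0.95 (SE 0.355, adjusted p-value 0.305 by the quasi-likelihood test of edgeR, adjusted after Benjamini and Hochberg) for Fos and 1.0 (SE 0.599, adjusted p-value 0.546 by the same test) for Fosb. Neither passed the threshold of 0.05.

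The promoters of Fos, Fosb, Dusp1 and Nr4a1 are shown because these 4 genes stood more than 2-fold higher in KO 1 than in KO 2 and KO 3 (2.13 to 3.03 times), and a promoter was held for them. Each window has 300 bases, 250 before and 50 after the RefSeq start site on GRCm38.p6, and is written 5′ to 3′ on the strand of the gene. They lie at chr12:85473640-85473939 (plus strand), chr7:19309996-19310295 (minus strand), chr17:26508423-26508722 (minus strand) and chr15:101266596-101266895 (plus strand). Capitals mark the matches to the motifs searched. These were the core of the cAMP response element TGACG, the full element TGACGTCA (which holds 2 overlapping cores), the EGR site GCGNGGGCG and the AP-1 site TGANTCA on both strands, the CArG box bound by serum response factor on both strands, and the TATA box TATAAA on the strand of the gene.
Fos: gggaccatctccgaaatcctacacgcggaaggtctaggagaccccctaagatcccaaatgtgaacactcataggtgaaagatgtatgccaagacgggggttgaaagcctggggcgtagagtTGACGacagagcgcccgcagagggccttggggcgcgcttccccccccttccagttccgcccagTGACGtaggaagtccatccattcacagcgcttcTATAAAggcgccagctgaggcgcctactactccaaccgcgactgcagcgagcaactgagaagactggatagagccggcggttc
Fosb: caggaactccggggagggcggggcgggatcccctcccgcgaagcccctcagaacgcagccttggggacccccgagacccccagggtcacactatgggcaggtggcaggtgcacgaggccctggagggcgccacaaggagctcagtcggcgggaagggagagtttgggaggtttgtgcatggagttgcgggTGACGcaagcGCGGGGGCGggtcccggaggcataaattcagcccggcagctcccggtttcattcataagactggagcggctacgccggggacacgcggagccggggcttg
Dusp1: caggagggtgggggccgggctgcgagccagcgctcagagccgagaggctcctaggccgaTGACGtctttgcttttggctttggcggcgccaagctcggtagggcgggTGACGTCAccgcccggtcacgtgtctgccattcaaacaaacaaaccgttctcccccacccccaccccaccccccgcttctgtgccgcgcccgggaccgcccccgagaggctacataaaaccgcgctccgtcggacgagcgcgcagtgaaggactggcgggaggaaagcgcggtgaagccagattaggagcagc
Nr4a1: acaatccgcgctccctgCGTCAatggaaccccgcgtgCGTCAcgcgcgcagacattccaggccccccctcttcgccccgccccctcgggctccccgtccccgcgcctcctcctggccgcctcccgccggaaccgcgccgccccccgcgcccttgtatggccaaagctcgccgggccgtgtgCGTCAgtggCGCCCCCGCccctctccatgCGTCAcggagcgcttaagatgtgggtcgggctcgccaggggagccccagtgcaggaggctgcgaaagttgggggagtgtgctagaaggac

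All 4 windows held TGACG, with its first base 129 and 66 bases before the start site in Fos, 60 bases before it in Fosb, 191, 143 and 140 bases before it in Dusp1, and 233, 213, 69 and 40 bases before it in Nr4a1. Over the 8 of 10 genes with a promoter in the table (Egr1 and Ier2 had none), 6 held TGACG, the exceptions being Jun and Jund, against 20.8% of 32851 promoter windows of the same length. These windows were not matched for base content. The share of G and C was 46.7% (Jund) to 72.3% (Nr4a1) over the 8, against a median of 52.7% over all windows. The full element was found in Dusp1 among the 8, against 1.79% of windows. The EGR site was found in Fosb and Nr4a1 (5.55% of windows), the TATA box in Fos and Junb (8.32%), and the CArG box (1.63%) and the AP-1 site (7.81%) in 0 of the 8 windows. TATAAA began 33 bases before the start site in Fos but at the start site itself in Junb. Sites outside the windows, or differing from the searched letters, were not looked for, so 0 does not mean that a gene lacks such a site. The window of Jund ended before the start of its deposited row, so its count as lacking TGACG is not for the start of that row, and the windows of Atf3, Dusp1 and Nr4a1 lay at a start inside their rows. A match is a stretch of letters and was not tested for binding.

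The 3 JUN genes differed from each other in how they lay between the groups. Jund (chromosome 8, 70698949 to 70700616), the member of the family known for steady expression, was at 37.8, 22.2 and 17.8 FPKM in KO 1, KO 2 and KO 3 and at 29.6, 31.8 and 33.5 FPKM in WT 1, WT 2 and WT 3. KO 1 was thus above and KO 2 and KO 3 below all wildtype libraries. Jun (chromosome 4, 95049034 to 95052222), the partner of FOS in the classical AP-1 dimer, was at 4.36, 2.98 and 3.09 FPKM in KO and 4.05, 3.36 and 4.17 FPKM in wildtype, with KO 1 again above and KO 2 and KO 3 below all wildtype libraries. Junb (chromosome 8, 84976910 to 84978718), which forms weaker AP-1 dimers than Jun, was at 30.0, 25.0 and 25.0 FPKM in KO and 18.3, 22.4 and 22.2 FPKM in wildtype, so that the groups did not overlap. The log2 difference was 0.41 for Junb (SE 0.176, adjusted p-value 0.371 by edgeR), -0.03 for Jun (SE 0.230, adjusted p-value 0.982) and -0.09 for Jund (SE 0.278, adjusted p-value 0.943).

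As a description of the AP-1 pool, FPKM values were summed over the FOS family (Fos, Fosb, Fosl1 and Fosl2) and over the JUN family. The ratio of both sums does not depend on scaling between libraries. It was 0.66, 0.62 and 0.63 in KO 1, KO 2 and KO 3, and 0.43, 0.34 and 0.46 in WT 1, WT 2 and WT 3, or 0.643 ± 0.023 (SD, n = 2) in KO and 0.410 ± 0.060 (SD, n = 3) in wildtype. All KO libraries lay above all wildtype libraries in this ratio. Among single tested genes, 12.5% had their KO samples all above wildtype, and 28.6% did not overlap in either direction. The FOS sum was 47.5, 31.1 and 29.0 FPKM in KO 1, KO 2 and KO 3 and 22.5, 19.7 and 27.2 FPKM in WT 1, WT 2 and WT 3, so it too was above every wildtype library in all 3 KO libraries. The JUN sum was 72.1, 50.1 and 45.8 FPKM in KO and 51.9, 57.5 and 59.8 FPKM in wildtype, with KO 1 the highest and KO 2 and KO 3 the lowest of the 6 libraries. Fos made up 75.4% of the FOS sum in KO 1, 53.5% and 50.8% in KO 2 and KO 3, and 53.6% to 62.6% in wildtype. Fosl2 was at 13.2 and 12.8 FPKM in KO 2 and KO 3 and at 6.98 to 9.38 FPKM in the other 4 libraries. Fosl2 is not a member, and Fos and Fosb each overlapped between the groups without it. Jund made up 44.3% and 38.8% of the JUN sum in KO 2 and KO 3, 52.4% in KO 1 and 55.2% to 57.0% in wildtype. The sums were formed with the values of the members known, so no p-value is given.

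**Figure D2:**
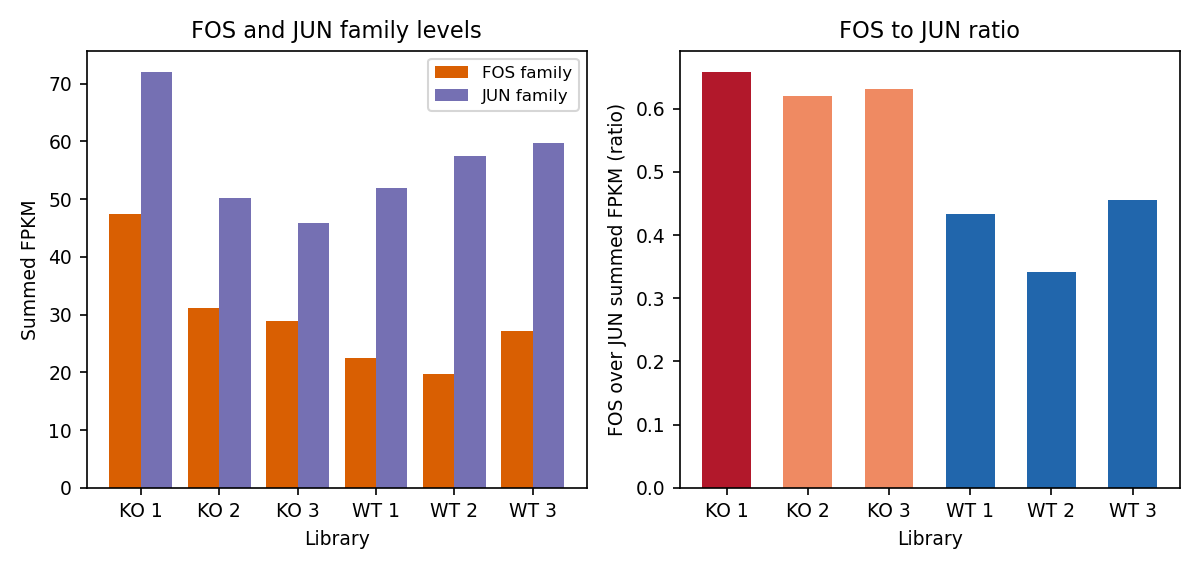
Left, summed FPKM of the FOS family (Fos, Fosb, Fosl1 and Fosl2) and the JUN family (Jun, Junb and Jund) in each library. Right, the ratio of both sums, which was 0.62 to 0.66 in KO libraries (red and orange) and 0.34 to 0.46 in wildtype libraries (blue).

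Egr1, a zinc finger factor induced by growth factor signalling (chromosome 18), was at 12.3 FPKM in KO 1, at 3.84 and 4.18 FPKM in KO 2 and KO 3, and at 6.56, 5.62 and 7.47 FPKM in WT 1, WT 2 and WT 3. The KO libraries therefore enclosed the wildtype range, with KO 1 at 3.06 times the mean of the other KO libraries. Its log2 difference was 0.36 (SE 0.429, adjusted p-value 0.808 by edgeR). Nr4a1 (chromosome 15, 101254269 to 101274795), an orphan nuclear receptor, was at 8.05, 3.82 and 3.74 FPKM in KO and 4.11, 3.61 and 7.46 FPKM in wildtype, so that the group means differed by less than the spread within either group (log2 difference 0.27, SE 0.415, adjusted p-value 0.870 by edgeR). WT 3 was the highest wildtype library for Nr4a1, as it was for Fos, Fosb, Egr1, Atf3, Jun and Jund.

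Atf3 (chromosome 1, 191170296 to 191218039), a CREB family repressor induced by many stresses, was at 3.87, 2.70 and 2.33 FPKM in KO and 1.96, 1.86 and 3.10 FPKM in wildtype (log2 difference 0.50, SE 0.332, adjusted p-value 0.595 by edgeR). Ier2 (chromosome 8, 84661331 to 84662854), a nuclear protein of the early response, was at 40.1, 29.5 and 30.1 FPKM in KO and 19.2, 28.5 and 22.3 FPKM in wildtype. The groups did not overlap for Ier2, although WT 2 lay close under KO 2, and the log2 difference was 0.60 (SE 0.237, adjusted p-value 0.327 by edgeR). Dusp1 (chromosome 17, 26505590 to 26562128), a phosphatase that switches off MAP kinases and so closes the response, and whose deposited row spans far more than its main transcript, was at 32.0, 10.8 and 10.3 FPKM in KO and 14.5, 18.3 and 17.4 FPKM in wildtype. As for Egr1, KO 1 was above and KO 2 and KO 3 were below all wildtype libraries, and the log2 difference was 0.39 (SE 0.428, adjusted p-value 0.789 by edgeR).

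Over the 10 genes, 0 passed the adjusted threshold of edgeR, as did 0% of all 15373 tested genes. At an unadjusted p-value under 0.05 there were 2 of 10, Fos and Ier2, both higher in KO, where 13.7% of tested genes reached that level in either direction and 7.63% as higher in KO. DESeq2 and limma on log2(FPKM + 1) of the same samples also called 0 members, while 3 and 2 reached an unadjusted p-value under 0.05. DESeq2 called 5.72% of tested genes after adjustment and had 16.1% at that unadjusted level, and limma called 0% and had 11.7%. The groups did not overlap for 2 of 10 members, Junb and Ier2, both higher in KO, against 28.6% of tested genes in either direction, 12.5% with KO above and 16% with KO below. The log2 difference was above 0 for 8 members and below 0 for 2, with a median of 0.40 over the members and of -0.016 over all tested genes.

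The direction of that median rested on KO 1. Without KO 1, which leaves the merged KO 2 and KO 3 as the single KO sample and assumes that it varies like the wildtype samples, the median over the members was -0.22 (-0.04 over all tested genes), with 4 members higher and 6 lower. Egr1 was then at -0.74 (SE 0.203, adjusted p-value 0.107 by edgeR), Dusp1 at -0.71 (SE 0.202, adjusted p-value 0.116) and Jund at -0.70 (SE 0.160, adjusted p-value 0.0783), and these 3 had an unadjusted p-value under 0.05 in the lower direction, against 9.89% of tested genes (20.7% in either direction, and 2.29% after adjustment). With KO 1 as the single KO sample the median was 0.84, all 10 members were higher, and 6 of 10 had an unadjusted p-value under 0.05, against 5.36% of tested genes as higher and 4.46% as lower in KO (9.82% together, and 0.0585% after adjustment). Fos was at 1.47 (SE 0.222, adjusted p-value 0.218 by edgeR) with KO 1 as the single KO sample and at 0.16 (SE 0.236, adjusted p-value 0.738) without it. Dusp1 was at 1.01 (SE 0.188, adjusted p-value 0.340) with KO 1 as the single KO sample. No member passed the adjusted threshold in either fit. Junb, Ier2, Fos and Atf3 kept a value above 0 in both, between 0.09 and 1.47.

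**Figure D3:**
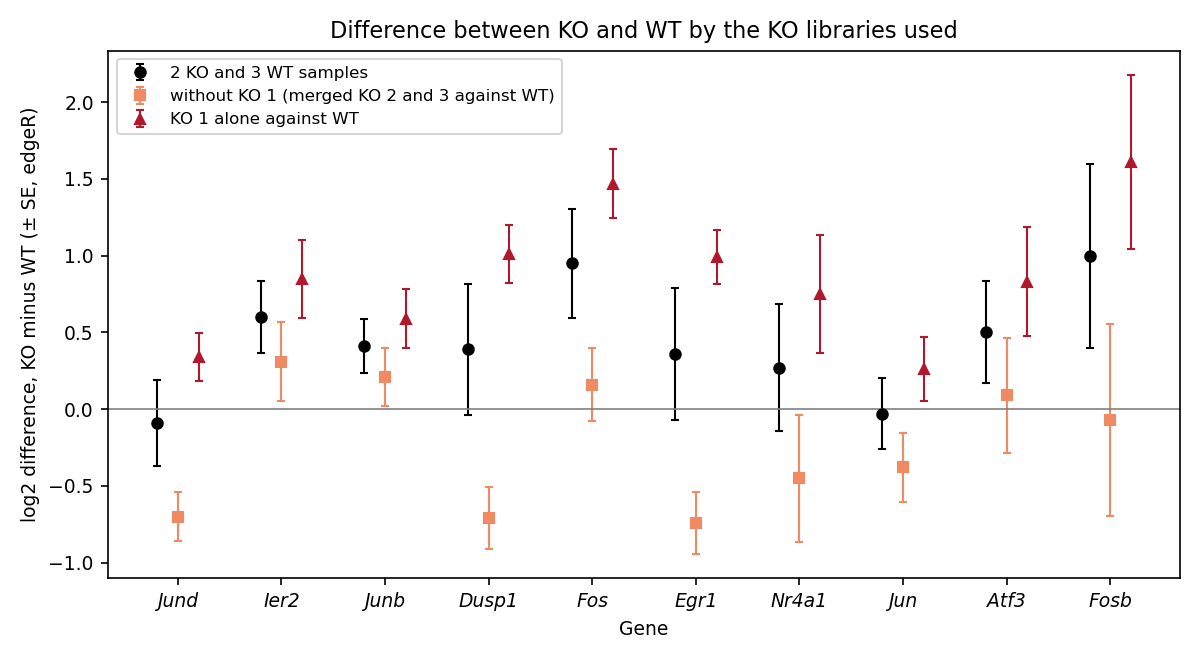
Log2 difference between KO and wildtype for each gene, with its standard error, from edgeR on 2 KO and 3 wildtype samples (black circles), with the merged KO 2 and KO 3 as the KO sample (orange squares), and with KO 1 as the KO sample (red triangles). Jund, Dusp1 and Egr1 lie near -0.7 without KO 1 and between 0.34 and 1.01 with KO 1 alone.

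The distance between KO 1 and the other KO libraries was therefore described across genes. On the log2(FPKM + 1) scale KO 1 lay above the mean of KO 2 and KO 3 for all 10 members, against 40.2% of tested genes, by a median of 0.90 (-0.09 over all tested genes). The difference was 1.51 for Dusp1, 1.40 for Egr1, 1.14 for Fos, 1.09 for Fosb, 0.92 for Nr4a1 and 0.89 for Jund. Between 1.27% and 4.01% of tested genes differed by as much in either direction. Jun, Ier2, Atf3 and Junb were closer, at 0.25 to 0.47. This compares 1 library with the merged pair and has no replicate check.

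Other gene lists showed how far this distance extended. KO 1 was the highest library for 12 of 24 other early-response signalling and RNA-decay genes, 2 of 12 other immediate-early transcription factors, 0 of 10 other AP-1 and ATF factors, 0 of 28 upstream kinases and DNA-binding factors and 1 of 15 heat shock genes. Higher in KO 1 than in the mean of KO 2 and KO 3 were 22 of the 24 early-response genes (median difference 0.19) and 7 of the 12 transcription factors (0.17). So were 4 of the 10 AP-1 and ATF factors (-0.07) and 3 of the 28 upstream genes (-0.18), against 40.2% of all tested genes. The heat shock list mixes chaperones of several kinds with the factor Hsf1. Its median difference between KO 1 and the other KO libraries was -0.07, with 6 of 15 genes higher in KO 1. Hspa1a was among these 6, at 0.556 FPKM in KO 1 and 0.403 and 0.357 FPKM in KO 2 and KO 3. Hsp90ab1 lay the other way, at 222 FPKM in KO 1 and 341 and 344 FPKM in KO 2 and KO 3. Markers of some other cell types also moved with KO 1, and those of others did so less or not at all. Of 11 tested chondrocyte genes, 8 were highest in KO 1, and the sum of the 14 listed was 1469 FPKM in KO 1, 645 and 654 FPKM in KO 2 and KO 3, and 619 to 849 FPKM in wildtype. The sum of 10 skeletal muscle genes was 196 FPKM in KO 1, 5.48 and 4.73 FPKM in KO 2 and KO 3, and 44.0, 76.2 and 374 FPKM in WT 1, WT 2 and WT 3. All 8 tested muscle genes were higher in KO 1 than in KO 2 and KO 3, while Myh1 and Myh2 were at 0 in KO 2 and KO 3. WT 3, with the highest muscle sum, was also the wildtype library with the highest member sum, at 137 FPKM against 111 and 128 FPKM in WT 1 and WT 2. The sum over the members was 208 FPKM in KO 1 and 119 and 113 FPKM in KO 2 and KO 3. Erythroid genes were higher in KO 1 than in KO 2 and KO 3 for 9 of 9, with sums of 60709, 25218 and 24953 FPKM, although the wildtype sums were higher still at 71710 to 108566 FPKM. The fibroblast and tendon sum was 278, 108 and 108 FPKM in KO 1, KO 2 and KO 3 (180 to 235 FPKM in wildtype), and the adipocyte sum was 56.3, 23.9 and 23.9 FPKM (77.7 to 215 FPKM in wildtype). Most of the fibroblast and tendon sum in KO 1 was Dcn, at 183 FPKM. Genes higher in KO 1 than in KO 2 and KO 3 were 6 of 8 in that list and 5 of 6 adipocyte genes. In other lists they were 9 of 12 B cell, 8 of 11 T and NK cell and 7 of 10 osteoblast and osteocyte genes. Neutrophil and granulocyte precursor genes were higher for 6 of 12, macrophage genes for 5 of 10 and endothelial genes for 1 of 8 (medians -0.20, 0.01 and -0.13). The part of these cell types in the member levels was not tested.

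**Figure D4:**
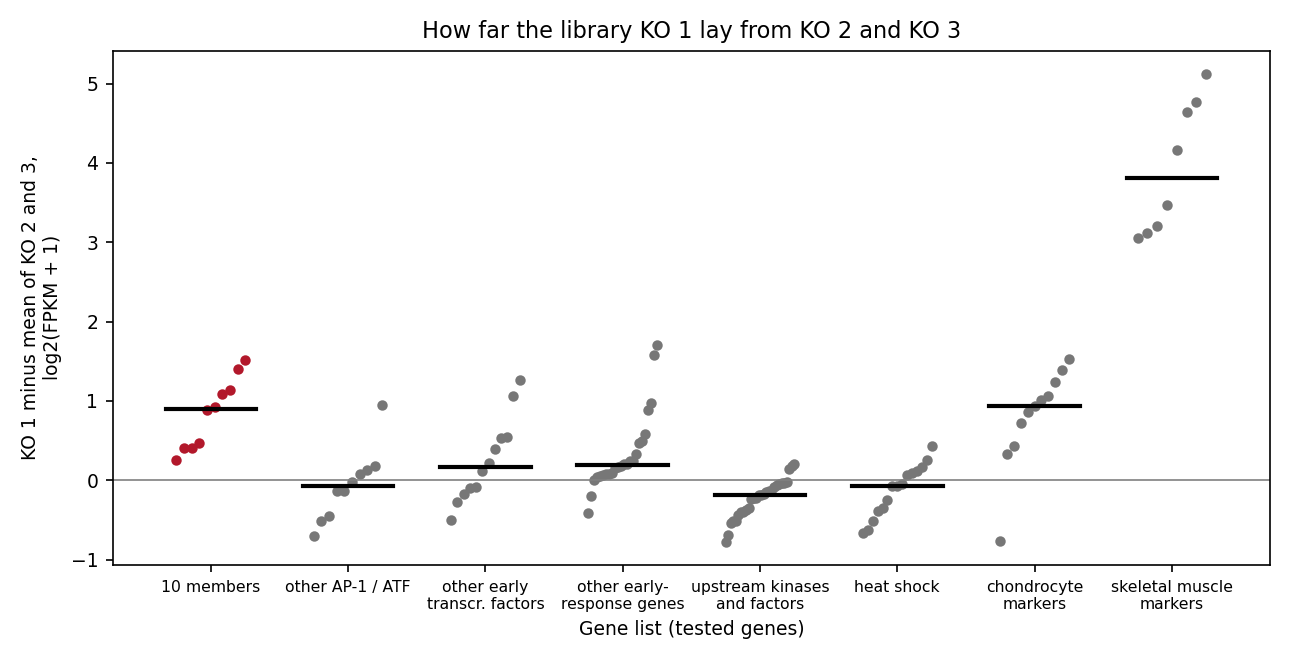
Difference between KO 1 and the mean of KO 2 and KO 3 on the log2(FPKM + 1) scale for each tested gene (points, sorted within each list), with the median of each list as a bar. The 10 members (red) lie between 0.25 and 1.51. The heat shock list has a median of -0.07, the chondrocyte list of 0.94 and the skeletal muscle list of 3.82.

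The genes around these 10 in the same response were tested in the same fit, and 0 of the 89 tested genes of 5 lists passed the adjusted threshold of edgeR. Among the other AP-1 and ATF factors (10 of 11 tested), 0 reached an unadjusted p-value under 0.05, with a median log2 difference of 0.06. Jdp2, a repressor that pairs with JUN proteins (0.26, SE 0.143), Batf (0.41, SE 0.222) and Fosl2 (0.37, SE 0.209) had the smallest p-values, with adjusted p-values of 0.494 to 0.513. Fosl1 was under the limit of 0.5 FPKM. Of the other immediate-early transcription factors (12 of 14 tested), 6 lay on each side of 0, and 2 had an unadjusted p-value under 0.05. Both were higher in KO, where 7.63% of tested genes were at that level. They were Nfil3, a bZIP repressor, with 12.4, 18.0 and 17.9 FPKM in KO 1, KO 2 and KO 3 and 7.82 to 9.85 FPKM in wildtype (log2 difference 0.83, SE 0.20, adjusted p-value 0.175), and Klf4, a zinc finger factor (0.41, SE 0.138, adjusted p-value 0.265). Klf10, a TGF-beta early-response gene, was at -0.33 (SE 0.157, adjusted p-value 0.435). With the 6 libraries as labelled, Nfil3 passed the threshold, with an adjusted p-value of 0.041 by edgeR, and 3.71% of tested genes did.

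Among the other early-response signalling and RNA-decay genes (24 of 26 tested), 3 had an unadjusted p-value under 0.05 and all 3 were lower in KO, where 6.07% of tested genes were. These were the MAP kinase phosphatases Dusp5 (-0.74, SE 0.242, adjusted p-value 0.252 by edgeR) and Dusp10 (-0.54, SE 0.206, adjusted p-value 0.313), and Zfp36l1, which promotes decay of mRNAs with AU-rich elements (-0.44, SE 0.176, adjusted p-value 0.337). The median of the list was 0.02. Of 28 upstream kinases and DNA-binding factors, 19 were above 0 and 9 below, with a median of 0.09. An unadjusted p-value under 0.05 was found for 5 as higher and 1 as lower in KO, against 7.63% and 6.07% of tested genes. The smallest p-values were those of Mapk3 (ERK1), at 71.8, 76.6 and 72.2 FPKM in KO and 47.6 to 51.8 FPKM in wildtype (log2 difference 0.59, SE 0.125, adjusted p-value 0.166), of the ERK-activated kinase gene Rps6ka1 (0.70, SE 0.170, adjusted p-value 0.175) and of Mrtfa, a cofactor of serum response factor (0.59, SE 0.152, adjusted p-value 0.186). With the 6 libraries as labelled, which counts KO 2 and KO 3 as separate samples, 3.71% of tested genes passed. These 3 genes were among them (adjusted p-values of 0.036, 0.040 and 0.043 by edgeR). The 12 neutrophil and granulocyte precursor genes moved in the same direction, all 12 being above 0 in KO with sums of 51422 to 62789 FPKM against 27182 to 44058 FPKM in wildtype. Other marker lists lay in the opposite direction. All 12 B cell genes were below 0, each with an unadjusted p-value under 0.05 (median -1.47, and 11 passed with the 6 libraries as labelled). Below 0 were also 9 of 9 erythroid genes (median -0.91) and 6 of 6 adipocyte genes (median -2.42). An unadjusted p-value under 0.05 was reached by 4 of the erythroid and all 6 of the adipocyte genes, against 6.07% of tested genes as lower. The part of these cell types in the values of the members and of the lists was not tested. Of 15 heat shock genes, 13 were below 0 and 2 above, with a median of -0.13. Dnajb4 had the smallest p-value (-0.64, SE 0.124, adjusted p-value 0.166, and 0.036 with the 6 libraries as labelled), followed by Hspe1 (-0.36, SE 0.190, adjusted p-value 0.482) and Bag3 (-0.23, SE 0.165, adjusted p-value 0.622).

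Gene structure, which the choice by name did not use, varied among the 10 genes. In the GENCODE annotation their main coding transcripts had 1 exon in Jun, Junb, Jund and Ier2, 2 in Egr1, 4 in Fos, Fosb, Atf3 and Dusp1, and 8 in Nr4a1, with a median of 3 against 9 over 12440 tested coding genes. They spanned a median of 3287 bases of the genome, against 20895 bases, and Nr4a1, at 20527 bases, lay near the median of all genes. Of all genes, 48.8% had no more exons than Nr4a1 and 49.5% spanned no more bases. In the 3′ untranslated regions the pentamer ATTTA, the core of AU-rich elements that shorten the life of an mRNA, was found in 9 of the 10, the exception being Ier2, but 69.2% of the 11718 genes with at least 100 bases of 3′ untranslated region also held it. Its density was 5.80 per kb in Dusp1, 5.52 in Nr4a1, 4.91 in Fos, 4.12 in Junb, 3.24 in Jun, 2.53 in Atf3, 1.88 in Jund, 1.64 in Egr1 and 0.466 in Fosb. The median over the members was 2.88 per kb against 1.34 per kb over all genes, with Fosb and Ier2 below the latter. The longer TATTTAT was found in 6 members and in 29.1% of genes.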

How the data were processed

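RNA-seq of articular cartilage was analysed in 3 KO and 3 wildtype libraries, grouped by sample titles. The gene knocked out is not reported here. Per the labels, poly(A) RNA was made into strand-specific paired-end libraries with molecular identifiers. The submitters' processing notes list cutadapt 1.9, HISAT2 2.0.4, UMI-tools and StringTie 1.3.4d. The authors deposited FPKM, scaled within each library, and estimated counts. These were whole numbers that piled up at 4 (6596 values, against 4170 at 3 and 2332 at 5), so a count was not taken as 1 read pair. The genome build was not given in the sources used here, and 87.0% of gene positions equalled GENCODE M21 on GRCm38.

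The 15373 genes averaging 0.5 FPKM or more were tested with edgeR 4.0.16 (quasi-likelihood, TMM, R 4.3.3) on counts with KO 2 and KO 3 averaged and rounded. SE is the log2 difference over the square root of F. Alternatives used limma 3.58.1 and DESeq2 1.42.0, other filters and scalings, a replicate block and libraries left out. The fits were also run on simulated counts with the same relative spread for every gene. That setting is simpler than these libraries and says little on the calls of the members. Members and lists were chosen with earlier results of these data known. Named genes were the members, the 3 smallest p-values of each list and the 5 genes nearest in profile. 0 columns were left unused.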

Additional observations from a re-analysis of the deposited data

How the results depend on the processing

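The number of members called was 0 under all 16 alternatives, with adjusted p-values of 0.0783 or more. The number of genes called over the whole table was 0 with edgeR, and moved to 570 with the 6 libraries as labelled, 879 with DESeq2 and 21 without a filter. It ranged from 0 to 352 with a library or the merged pair left out (352 without KO replicate 1, 9 without KO replicates 2 and 3, and 1 each without WT replicate 2 and WT replicate 3). The median log2 difference of the members (0.40) ranged from -0.22 without KO replicate 1 to 0.84 without KO replicates 2 and 3 (0.52 at most with a single library left out, without WT replicate 3), and was 0.18 with the replicate block on the 6 libraries as labelled. That block called 0 genes. Deviations from the group means correlated at -0.145, -0.108 and -0.0581 between libraries of the same replicate number. With so few libraries per label, and KO 2 and KO 3 so close, these values cannot settle whether the numbers pair the libraries. Under the block Egr1 (-0.17) and Dusp1 (-0.15) changed sign. Without KO replicate 1, Fosb (-0.07), Egr1 (-0.74), Dusp1 (-0.71) and Nr4a1 (-0.45) changed sign. Jun changed sign without WT replicate 3 (0.04) and without KO replicates 2 and 3 (0.26), as did Jund in the latter (0.34). With a single library left out, Fosb reached 1.67, Jun -0.38, Egr1 0.47, Dusp1 0.48 and Nr4a1 0.66 at the other end of their range. Fos, Junb, Atf3 and Ier2 did not change sign under any alternative run. With 1 KO sample left, its spread was assumed to be that of the wildtype samples. The cause of the changed counts was not tested.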

Other observations

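The genes nearest to the mean profile of the members over the 6 libraries, among 7607 other genes averaging 5 FPKM or more, were Clu, Igkv4-68, Gm10136, Pam and Mfge8. Nearness is the mean absolute difference of centred log2(FPKM + 1) values, which was 0.0749 for Clu, 0.0868 for Igkv4-68 and 0.0998 to 0.101 for the other 3, against a median of 0.316. Clu, a secreted chaperone, was at 139 FPKM in KO 1, 66.0 and 67.5 FPKM in KO 2 and KO 3, and 69.9, 79.4 and 90.0 FPKM in WT 1, WT 2 and WT 3. Mfge8, a secreted bridge between dying cells and phagocytes, was at 17.9 FPKM in KO 1, 8.73 and 8.14 FPKM in KO 2 and KO 3, and 10.1, 11.3 and 12 FPKM in wildtype. Igkv4-68 has close paralogs, so its value is uncertain. The members themselves lay at 0.125 to 0.287 from their mean profile, and 2 genes of the other early-response, kinase and heat shock lists were among the 50 nearest.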
